A study of Mus musculus with 6 samples.

Results

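Mineralizing osteoblasts set the balance between inorganic phosphate and its inhibitor pyrophosphate with a small group of enzymes and transporters. The 10 mouse genes described here encode these proteins: *Alpl*, *Phospho1*, *Smpd3*, *Enpp1*, *Ank*, *Slc20a1*, *Slc20a2*, *Xpr1*, *Fam20c* and *Phex*. They were listed by name for their known roles, with earlier results of these data known, and all 10 were found among the 24016 genes measured.

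Phosphate is released from phosphomonoesters and pyrophosphate outside the cell and from phosphocholine inside matrix vesicles, the small membrane-bound bodies in which the first mineral crystals form. Pyrophosphate, made from extracellular ATP or exported from the cell, blocks crystal growth until a phosphatase splits it. Phosphate carriers move the ion across the plasma membrane, and phosphorylation and proteolysis of acidic matrix proteins set how these bind mineral.

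RNA-seq libraries came from a subclone of MC3T3-E1, a preosteoblast line from mouse calvaria that lays down a mineralizing collagen matrix. Differentiation of all cells took 6 days with β-glycerophosphate (10 mM), a phosphate donor that alkaline phosphatase can split, and ascorbic acid (50 μg/ml), and the labels name 10 nM calcitriol, the active form of vitamin D, in the treatment medium. The vehicle group (n = 3) and the group given corticosterone, which is the chief glucocorticoid in mice, at 100 nM for 24 h (n = 3) were wild type. Both groups rest on 1 subclone of 1 cell line, the passage ranges given differ between the labels' fields and the methods, and the methods call the 3 samples of each group independent biological replicates, without saying how the cultures were separated, so p-values measure the spread between cultures of this subclone.

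Values are normalized counts, which are reads per gene divided by 1 size factor per library, and the libraries held 16020401 to 25638645 reads on genes. Changes are log2 fold changes of corticosterone over vehicle on the log2(value + 0.1) scale, tested with limma across all genes. Both genes used to check the treatment rose: *Tsc22d3*, which encodes the glucocorticoid-induced leucine zipper, by a log2 fold change of 1.49 and *Fkbp5*, a co-chaperone of the glucocorticoid receptor, by 2.46 (limma adjusted p = 9.5e-11 and 1.4e-13). All 7 osteoblast markers examined, among them *Runx2*, *Sp7* and *Col1a1*, were present and fell. Their summed normalized count went from 1385137 to 1433854 with vehicle to 1165077 to 1223634 with corticosterone. *Col1a1*, *Col1a2* and *Sparc* made up nearly all of this sum, with log2 fold changes of -0.15, -0.35 and -0.33. *Runx2* (-1.16) and *Sp7* (-1.34) fell further but added little to it. Whether the changes in the 10 genes go with this fall of the whole marker list was not tested. In bulk RNA fewer cells expressing a gene and less RNA per cell cannot be told apart.

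Corticosterone lowered *Alpl*, *Smpd3*, *Enpp1*, *Ank* and *Fam20c* and raised *Slc20a1*. These 6 of the 10 genes had an adjusted p under 0.05, 5 lower and 1 higher, and the vehicle and corticosterone libraries overlapped in none of the 6. Among all 24016 genes tested, 8.2% were lower and 8.49% higher at this threshold, and the groups did not overlap in 29.6% in either direction. Since 8 of the 10 genes had a mean of at least 100, the fairer background is the 10558 genes at that level, of which 15.5% were lower, 17.1% higher and 49.0% without overlap. None of the 10 passed the stricter call that also asks for an absolute log2 fold change over 1, which 1.4% of all genes passed as lower and 1.38% as higher. The median log2 fold change of the 10 genes was -0.36, against -0.01 over all genes. Without the variance trend of limma, which lets genes of like abundance share an estimate of spread, the adjusted p rose to 0.21 for *Alpl*, 0.051 for *Ank* and 0.069 for *Smpd3*, leaving 2 genes lower and 1 higher.

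**Figure D1:**
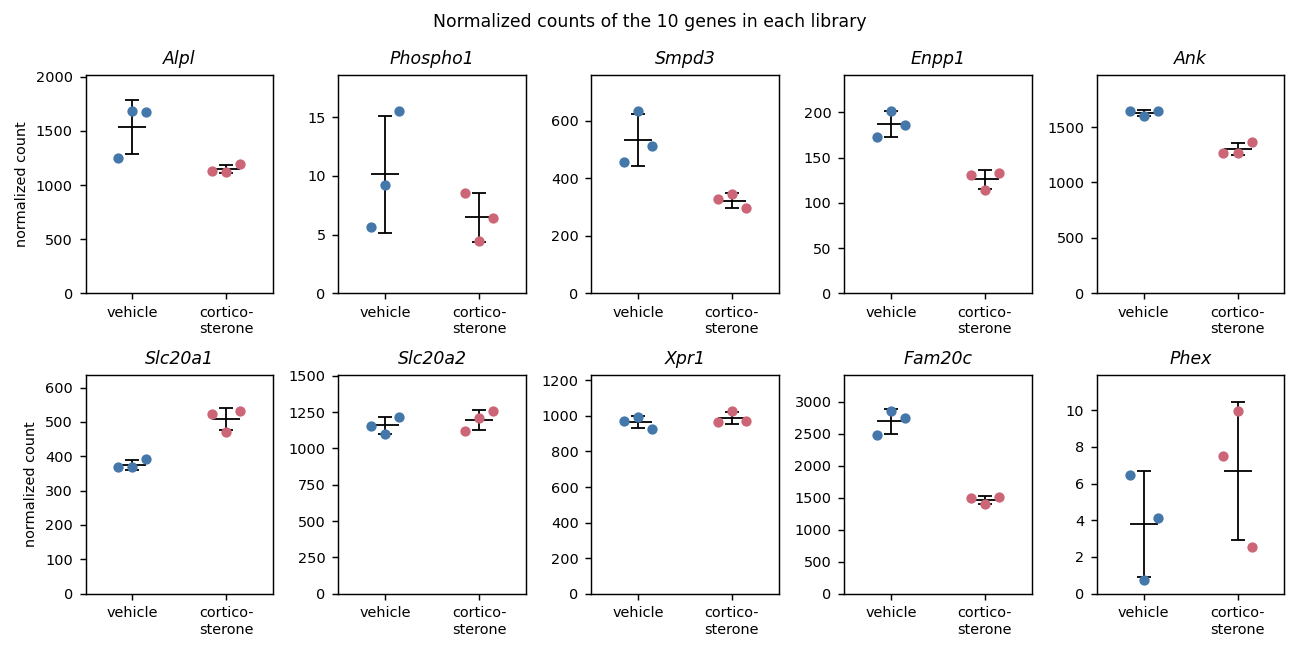
Normalized counts of the 10 genes, 1 point per library, in vehicle (blue) and corticosterone (red), with the mean and SD (n = 3) in black and each vertical axis starting at 0. The groups are separate in *Alpl*, *Smpd3*, *Enpp1*, *Ank*, *Fam20c* and *Slc20a1*, overlap in *Slc20a2* and *Xpr1*, and hold only a few counts in *Phospho1* and *Phex*.

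Tissue-nonspecific alkaline phosphatase, the product of *Alpl*, sits on the outer face of osteoblasts and matrix vesicles, where it splits pyrophosphate and releases phosphate. *Alpl* (ENSMUSG00000028766, chr4:137741733-137796384 of GRCm38, minus strand) had 1246, 1683 and 1672 normalized counts with vehicle and 1131, 1121 and 1190 with corticosterone. The treated libraries were all below the vehicle libraries, but the lowest vehicle library, replicate 1, was much nearer to the treated cultures than to the other two. The mean went from 1534 ± 249 to 1147 ± 37.2 (SD, n = 3), a log2 fold change of -0.41 ± 0.09 (SE), or -24.5% (95% interval -33.7 to -14.1%, limma adjusted p = 0.0033). A two-sided exact permutation test gave p = 0.1, the smallest that 3 against 3 libraries allow, as it did for each of the other 5 genes without overlap. *Alpl* was the only one of the 6 whose call depended on single libraries: the adjusted p was 0.051 without vehicle replicate 2, 0.12 without vehicle replicate 3 and 0.060 without corticosterone replicate 3. Without vehicle replicate 1 the log2 fold change was -0.55 (adjusted p = 5.9e-05), a larger fall that follows from removing the lowest vehicle library.

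RefSeq gives *Alpl* 2 transcription starts, and the 250 bases before each (GRCm38.p6) are shown because they set the gene's upstream and internal starts side by side. The first lies at chr4:137796385-137796634, upstream of the gene. The second lies at chr4:137766476-137766725, within the gene and outside the exons of its coding transcripts. Capitals mark a match to the letters of the TATA box (TATAAA, here on the opposite strand as TTTATA). They also mark the hexamer to which a single glucocorticoid receptor binds (AGAACA, here as TGTTCT).
Alpl, start 1: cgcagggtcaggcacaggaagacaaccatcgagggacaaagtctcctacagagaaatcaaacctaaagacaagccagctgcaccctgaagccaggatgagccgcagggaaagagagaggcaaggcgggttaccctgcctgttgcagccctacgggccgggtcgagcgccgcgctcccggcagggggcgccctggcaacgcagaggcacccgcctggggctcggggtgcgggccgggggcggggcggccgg
Alpl, start 2: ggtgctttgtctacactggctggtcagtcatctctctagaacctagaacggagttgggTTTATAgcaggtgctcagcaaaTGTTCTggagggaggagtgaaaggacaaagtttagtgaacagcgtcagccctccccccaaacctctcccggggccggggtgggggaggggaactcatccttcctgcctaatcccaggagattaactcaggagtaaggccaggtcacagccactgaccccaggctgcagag
The first stretch holds neither motif. The second holds the hexamer 170 bases and the match to the TATA box letters 192 bases before the start. Whether this match acts as a TATA box was not tested. Searched on both strands, the hexamer occurs in 16.1% and the TATA box letters in 12.4% of 32851 promoter windows, so both matches are common. RefSeq promoter entries were given for 8 of the 10 genes, all but *Slc20a2* and *Smpd3*. The window of *Fam20c* begins within an exon of a coding transcript, so none of its bases were kept, which left 7 genes to search. The full receptor palindrome (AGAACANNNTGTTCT) was in none of their windows and in 3 of 32851. The first stretch is rich in G and C (68.4%, against 56.0% in the second and a median of 52.4% over all windows). Counts per gene do not say from which start the *Alpl* reads came.

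*Smpd3* encodes neutral sphingomyelinase 2, a membrane enzyme that cuts sphingomyelin into ceramide and phosphocholine, the latter a substrate for phosphate release in matrix vesicles. *Smpd3* (ENSMUSG00000031906, chr8:106252548-106337988, minus strand) had 455, 634 and 511 normalized counts with vehicle and 327, 345 and 296 with corticosterone. The groups did not overlap, and vehicle replicate 2 stood above the other vehicle libraries. The mean fell from 533 ± 91.4 to 322 ± 24.8 (SD, n = 3), a log2 fold change of -0.72 ± 0.10 (SE), or -39.1% (95% interval -47.7 to -29.0%, limma adjusted p = 9.1e-05). It kept an adjusted p under 0.05 with any single library left out. Exons of *Prmt7*, on the opposite strand, cover 4.7% of the *Smpd3* exons, and *Prmt7* itself rose (0.31, adjusted p = 0.0034), opposite in direction to *Smpd3*.

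*Phospho1* encodes the phosphatase that frees phosphate from phosphocholine and phosphoethanolamine inside matrix vesicles. *Phospho1* (ENSMUSG00000050860, chr11:95824499-95832140, plus strand) had 5.68, 9.26 and 15.5 normalized counts with vehicle and 8.57, 4.42 and 6.40 with corticosterone, that is 4 to 15 reads per library. The groups overlapped, and the log2 fold change of -0.58 had a 95% interval from -1.83 to 0.68 (limma adjusted p = 0.63), so no change was detectable at this depth. The low value is no measure of the gene's level, since 89.6% of its exon bases (1818 of 2029) also lie in exons of *Zfp652* on the same strand and 84.2% in exons of *Abi3* on the other. *Zfp652*, a zinc finger gene, had a mean of 1315 ± 30.0 with vehicle and 1155 ± 22.9 with corticosterone (SD, n = 3; -0.19, adjusted p = 0.015), and 87.1% of the 31-base stretches of *Phospho1* transcripts also occur in its transcripts. Reads in the shared exons cannot be assigned to either gene from these counts.

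*Enpp1* encodes the ectoenzyme that makes pyrophosphate from extracellular ATP, and loss of its function leads to calcification of soft tissue. *Enpp1* (ENSMUSG00000037370, chr10:24637914-24712159, minus strand) had 173, 201 and 186 normalized counts with vehicle and 131, 114 and 133 with corticosterone, from 103 to 261 reads per library. All corticosterone libraries were below all vehicle libraries. The mean fell from 187 ± 14.4 to 126 ± 10.5 (SD, n = 3), a log2 fold change of -0.57 ± 0.12 (SE), or -32.7% (95% interval -43.3 to -20.0%, limma adjusted p = 0.0022). The 250 bases before its only RefSeq start (chr10:24712160-24712409, minus strand, GRCm38.p6) hold 1 copy of the RUNX core ACCACA, 144 bases before the start and marked in capitals, a motif shown because it is the binding core of the osteoblast factor encoded by *Runx2*.
Enpp1: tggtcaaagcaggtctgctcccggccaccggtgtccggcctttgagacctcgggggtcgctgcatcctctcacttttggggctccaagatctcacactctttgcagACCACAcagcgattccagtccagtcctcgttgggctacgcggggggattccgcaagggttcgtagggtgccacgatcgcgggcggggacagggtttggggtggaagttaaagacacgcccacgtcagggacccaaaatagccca
This core occurs on either strand in 4614 of the 32851 windows.

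*Ank* encodes a membrane protein of many spans that lets ATP and pyrophosphate out of the cell. *Ank* (ENSMUSG00000022265, chr15:27466677-27594909, plus strand) had 1641, 1598 and 1645 normalized counts with vehicle and 1269, 1270 and 1365 with corticosterone. Within each group the libraries lay close together, and the groups were far apart relative to that spread. The mean fell from 1628 ± 26.2 to 1301 ± 55.2 (SD, n = 3), a log2 fold change of -0.32 ± 0.05 (SE), or -20.1% (95% interval -25.8 to -14.0%, limma adjusted p = 1.7e-04). It was the smallest change among the 5 genes that fell.

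*Enpp1* and *Ank*, which supply pyrophosphate, and *Alpl*, whose product removes it, thus fell together. No change was detected in *Enpp3*, a further pyrophosphate-forming ectoenzyme gene (0.08, limma adjusted p = 0.64). The ratios of *Enpp1*, *Ank* and *Alpl* within a library were compared as a description with no test. The ratio of *Enpp1* to *Alpl* normalized counts was 0.123 ± 0.0139 with vehicle and 0.110 ± 0.00728 with corticosterone (SD, n = 3), and the libraries overlapped. That of *Ank* to *Alpl* also overlapped, at 1.32, 0.949 and 0.984 with vehicle and 1.12, 1.13 and 1.15 with corticosterone. The ratio of *Ank* to *Enpp1*, the exporter to the ectoenzyme, did not overlap and went from 8.76 ± 0.789 to 10.4 ± 0.733. These ratios do not depend on how libraries were scaled.

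*Slc20a1*, a transport gene, rose. It encodes PiT-1, a sodium-dependent importer of phosphate. *Slc20a1* (ENSMUSG00000027397, chr2:129198764-129211616, plus strand) had 367, 367 and 392 normalized counts with vehicle and 524, 471 and 531 with corticosterone. The groups did not overlap, and the lowest treated library was well above the highest vehicle library. The mean rose from 376 ± 14.2 to 508 ± 33.0 (SD, n = 3), a log2 fold change of 0.44 ± 0.07 (SE), or 35.2% (95% interval 21.2 to 50.8%, limma adjusted p = 4.3e-04), and the call held with any single library left out. The RNA 9830144P21Rik on the opposite strand covers 8.1% of the *Slc20a1* exon bases. Its mean was 21.1 ± 2.36 with vehicle and 24.3 ± 8.97 with corticosterone (limma adjusted p = 0.89). *Gm4430*, also on the opposite strand, covers 5.0% and had 62.8 ± 8.37 and 56.1 ± 7.69 (adjusted p = 0.68). What reads from the shared exons add to the counts of *Slc20a1* was not tested.

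The bases before the upstream RefSeq start of *Slc20a1* (chr2:129198523-129198763, plus strand, GRCm38.p6; 9 exonic bases were left out of the 250) are given because this was the only one of the 10 genes to rise. Capitals mark the RUNX core, here on the opposite strand as TGTGGT, 77 bases before the start.
Slc20a1, start 1: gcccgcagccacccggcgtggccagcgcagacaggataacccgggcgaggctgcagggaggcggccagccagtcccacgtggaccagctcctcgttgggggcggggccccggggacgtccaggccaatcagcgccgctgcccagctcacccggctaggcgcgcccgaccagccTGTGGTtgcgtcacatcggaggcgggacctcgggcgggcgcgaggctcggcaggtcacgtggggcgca
A second RefSeq start, inside the gene, has the receptor hexamer AGAACA 204 bases before it (window chr2:129206846-129207095). Neither window holds the full palindrome. The windows of *Phospho1*, *Ank*, *Phex* and *Xpr1* hold none of the 4 motifs searched, and *Alpl* and *Slc20a1* were the only ones of the 7 genes searched with the hexamer. They were also the only ones of the 7 with 2 windows, and in both genes the hexamer lay in the second window only. The hexamer occurs in 16.1% of all windows. A match in these letters is a description of the sequence only.

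*Slc20a2*, which encodes PiT-2, a second sodium-dependent phosphate importer, and *Xpr1*, which encodes a phosphate exporter, stayed near their vehicle levels. *Slc20a2* (ENSMUSG00000037656, chr8:22476788-22569612, plus strand) had 1156, 1100 and 1218 normalized counts with vehicle and 1118, 1208 and 1255 with corticosterone. *Xpr1* (ENSMUSG00000026469, chr1:155275701-155417415, minus strand) had 973, 995 and 929 with vehicle and 967, 1026 and 974 with corticosterone. In both genes the groups overlapped. The log2 fold change was 0.04 for *Slc20a2* (95% interval -0.08 to 0.17, limma adjusted p = 0.70) and 0.03 for *Xpr1* (-0.08 to 0.15, adjusted p = 0.76). Scaling the libraries to the same total turned the sign for *Xpr1* (-0.0074).

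Within each library the importers shifted relative to each other. The ratio of *Slc20a1* to *Slc20a2* normalized counts was 0.318, 0.334 and 0.322 with vehicle and 0.468, 0.389 and 0.423 with corticosterone. The treated libraries all lay above the vehicle libraries, whose ratios were close together. The ratio of *Slc20a1* to the exporter gene *Xpr1* moved from 0.390 ± 0.0284 to 0.515 ± 0.0490 (SD, n = 3), also without overlap.

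*Fam20c* encodes the Golgi kinase that phosphorylates most secreted phosphoproteins, including the acidic proteins of bone matrix. It showed the largest fall of the 10 genes by limma. *Fam20c* (ENSMUSG00000025854, chr5:138754514-138810077, plus strand) had 2474, 2849 and 2746 normalized counts with vehicle and 1494, 1395 and 1503 with corticosterone. The highest treated library was far below the lowest vehicle library. The mean fell from 2690 ± 194 to 1464 ± 59.9 (SD, n = 3), a log2 fold change of -0.88 ± 0.06 (SE), or -45.5% (95% interval -49.8 to -40.8%, limma adjusted p = 8.3e-09), and it stayed past the threshold under every alternative run. *Fam20b*, a related gene for a xylose kinase of proteoglycan assembly, had 3291 ± 110 and 3050 ± 32.1 (SD, n = 3; -0.11, adjusted p = 0.10), and the within-library ratio of *Fam20c* to *Fam20b* went from 0.818 ± 0.0751 to 0.480 ± 0.0245 without overlap. *Fam20a*, which encodes a pseudokinase that activates the *Fam20c* product, also fell, from 280 ± 33.3 to 157 ± 27.2 (-0.84, adjusted p = 1.4e-04).

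*Phex* encodes a zinc endopeptidase of osteoblasts and osteocytes whose loss causes X-linked hypophosphatemia. *Phex* (ENSMUSG00000057457, chrX:157162075-157415312, minus strand) had 6.49, 0.77 and 4.14 normalized counts with vehicle and 7.49, 9.94 and 2.56 with corticosterone, from 1 to 9 reads per library. The groups overlapped, and the log2 fold change of 1.02 had a 95% interval from -0.88 to 2.92 (limma adjusted p = 0.55). No change in *Phex* was detectable at this depth, and the interval includes large changes in either direction.

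**Figure D2:**
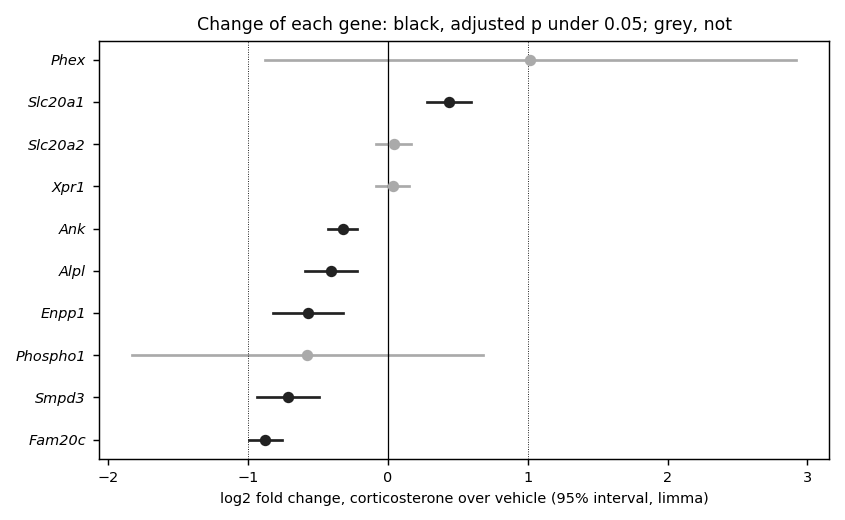
Log2 fold change of corticosterone over vehicle for each of the 10 genes, with the 95% interval from limma, in black where the adjusted p was under 0.05 and in grey where it was not; dotted lines mark a log2 fold change of 1 in either direction. *Fam20c* (-0.88) to *Ank* (-0.32) lie below 0, *Slc20a1* (0.44) lies above it, and *Phospho1* and *Phex* have wide intervals that hold 0.

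Levels of different genes were compared per kb of annotated exons. This length belongs to the gene's annotation, and the length of the transcripts expressed in these cells is not known from counts per gene. With vehicle, *Ank* was highest at 451 ± 7.25 normalized counts per kb (SD, n = 3), followed by *Fam20c* at 408 ± 29.4 and *Alpl* at 380 ± 61.7, and the last pair overlapped between libraries. *Slc20a2* (186), *Smpd3* (102), *Slc20a1* (67.3), *Xpr1* (54.0) and *Enpp1* (18.2) came next and did not overlap with their neighbours. The place of *Xpr1* rests on its 17880 exon bases, against 5232 for *Smpd3* and 5580 for *Slc20a1*. Before division by length its vehicle mean (966) was above theirs (533 and 376). Lack of overlap between libraries does not cover an error in the length. *Phex* had 0.60, and the value of *Phospho1* (5.00) is not a level that can be ranked, since most of its exon bases are shared with *Zfp652*. With corticosterone *Ank* was still first at 360 ± 15.3, *Alpl* (284 ± 9.23) stood above *Fam20c* (222 ± 9.09), and *Slc20a1* (91.1 ± 5.91) stood above *Smpd3* (61.6 ± 4.74), each without overlap. *Smpd3* then overlapped with *Xpr1* (55.3 ± 1.81). Per kb, the mRNA of the exporter gene *Ank* thus stood well above that of the ectoenzyme *Enpp1* in both groups, and that of PiT-2 above that of PiT-1. Both orders were also seen in the normalized counts before division by length. The places of *Ank* above *Fam20c* in both groups, and of *Alpl* above *Fam20c* with corticosterone, were not. Before division *Fam20c* had means of 2690 with vehicle and 1464 with corticosterone, above *Ank* (1628 and 1301) and *Alpl* (1534 and 1147). These places thus rest on the 6590 exon bases of *Fam20c*, against 3610 for *Ank* and 4033 for *Alpl*.

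**Figure D3:**
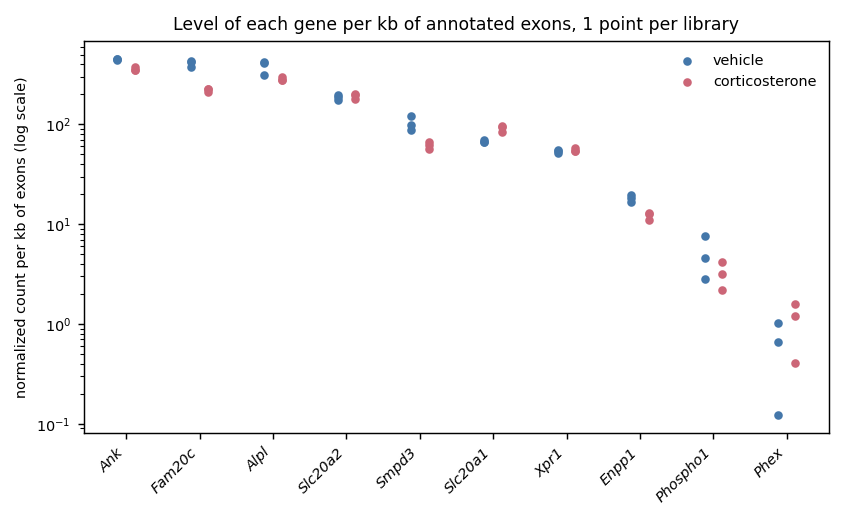
Normalized count per kb of annotated exons for the 10 genes, on a log scale, 1 point per library, in vehicle (blue) and corticosterone (red), ordered by the vehicle mean. *Ank*, *Fam20c* and *Alpl* lie highest, *Enpp1* is the lowest of the 8 genes with ample reads, and *Slc20a1* moves above *Smpd3* with corticosterone. The place of *Phospho1* is not a rank, as its exons are shared with *Zfp652*.

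Vehicle replicate 1 was the lowest vehicle library in 4 of the 5 genes that fell and in 6 of 7 osteoblast markers. How often it was the lowest over all genes was not counted. Leaving it out moved the log2 fold change of *Alpl* to -0.55, of *Smpd3* to -0.82, of *Enpp1* to -0.63 and of *Fam20c* to -0.93. All 4 kept an adjusted p under 0.05. A larger fall was bound to follow in these 4 genes, since their lowest vehicle library was removed.

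Other genes of the pathway were read from 5 lists, whose counts are given beside the shares of all genes above. Among relatives of the 10 genes, 20 of 21 were measured, of which 6 rose, 5 fell and 9 did not pass the adjusted p threshold, with a median of -0.01. The 3 that rose past a log2 fold change of 1 were all alkaline phosphatase genes of chromosome 1. *Akp3*, for an intestinal form, had 2.43, 2.32 and 3.10 normalized counts with vehicle, 3 reads in each library, and 30.0, 35.3 and 38.4 with corticosterone (limma adjusted p = 3.4e-05). Summed over the libraries, 9 reads stood against 90, a ratio after scaling of 13.3 with an exact 95% counting interval of 6.72 to 30.1. This interval and the counting intervals below cover the counting of reads only and leave out the spread between cultures. *Alppl2*, for an embryonic and placental form, had 8.92, 9.26 and 9.31 with vehicle and 54.6, 47.5 and 29.4 with corticosterone (2.20, adjusted p = 2.4e-04). *Alpi*, the other intestinal gene, had 0, 4 and 0 reads with vehicle and 9 to 23 with corticosterone (adjusted p = 0.0028), with a ratio of summed reads of 17.3 (counting interval 6.38 to 66.0), and its adjusted p was 0.066 without vehicle replicate 3 and 0.068 without corticosterone replicate 3. In all 3 the groups did not overlap, and *Alpl* moved the other way. Without vehicle replicate 3 or corticosterone replicate 3, 3 of the 6 relatives that rose no longer passed, namely *Alpi*, *Smpd2* and *Ece1*.

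The bases before the starts of these 3 genes (RefSeq, GRCm38.p6) are printed because the genes rose together and are neighbours. The windows are chr1:87101607-87101856 (*Alpi*, minus strand), chr1:87089929-87090178 (*Alppl2*, minus strand) and chr1:87124704-87124953 (*Akp3*, plus strand). Capitals mark the pair of 13-base runs that all 3 share.
Alpi: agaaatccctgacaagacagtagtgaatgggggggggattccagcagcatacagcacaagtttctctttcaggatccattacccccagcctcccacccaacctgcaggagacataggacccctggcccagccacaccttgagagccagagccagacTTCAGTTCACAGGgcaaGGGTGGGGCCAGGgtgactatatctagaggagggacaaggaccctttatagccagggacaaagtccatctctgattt
Alppl2: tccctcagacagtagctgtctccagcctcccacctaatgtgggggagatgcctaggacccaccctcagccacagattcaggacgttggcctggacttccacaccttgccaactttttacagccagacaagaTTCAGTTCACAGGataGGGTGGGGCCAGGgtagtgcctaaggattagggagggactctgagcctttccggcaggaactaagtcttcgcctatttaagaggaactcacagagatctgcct
Akp3: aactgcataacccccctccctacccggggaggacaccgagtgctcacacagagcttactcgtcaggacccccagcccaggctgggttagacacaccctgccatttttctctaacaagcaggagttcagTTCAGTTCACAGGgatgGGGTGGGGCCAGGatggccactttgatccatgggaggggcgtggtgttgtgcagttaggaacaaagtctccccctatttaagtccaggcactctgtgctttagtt
The run TTCAGTTCACAGG starts 94, 119 and 122 bases before the start in *Alpi*, *Alppl2* and *Akp3*, and the run GGGTGGGGCCAGG starts 77, 103 and 105 bases before it. They occur on either strand in 9 and 15 of the 32851 windows. None of the 3 windows holds the receptor hexamer. Only that of *Alpi* matches the TATA box letters, on the opposite strand 33 bases before the start and not marked here. Transcripts of the 3 genes share few stretches with other genes: 5.24% of the 31-base stretches of *Akp3*, 7.07% of *Alpi* and 3.84% of *Alppl2* occur elsewhere.

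The genes around them were then looked at, a choice made after these values had been seen. Of 12 measured genes within 100 kb of the cluster on chromosome 1, 7 were higher with an adjusted p under 0.05 and 0 lower, where 8.49% of all genes were higher. The 7 include the 3 genes that prompted the look, so 4 of the 9 other neighbours were higher. Of these 4, *Ecel1* is also on the list of relatives and was already counted there among those that rose. The pseudogene *Akp-ps1* had 5.68, 0.77 and 4.14 normalized counts with vehicle and 37.5, 45.3 and 38.4 with corticosterone, a ratio of summed reads of 11.8 (counting interval 6.47 to 23.5). *Gm29371* (1.94 ± 1.16 to 24.8 ± 8.69), *Gm29374* (22.2 ± 1.49 to 62.3 ± 7.46) and *Ecel1* (62.6 ± 7.72 to 125 ± 30.3), a peptidase gene related to *Phex*, also rose. *Eif4e2* and *Dis3l2*, at the ends of the window, had log2 fold changes of -0.03 and -0.08 (adjusted p = 0.79 and 0.68).

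**Figure D4:**
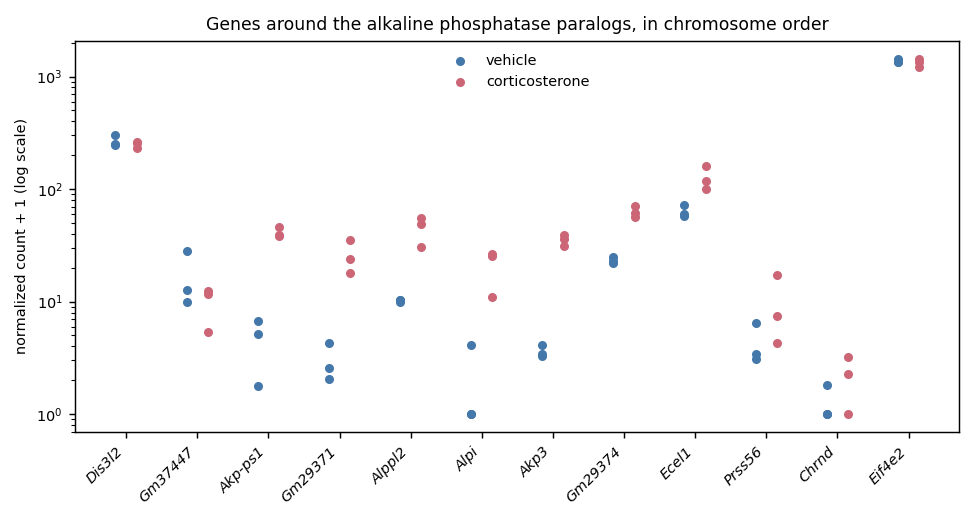
Normalized count + 1 on a log scale, 1 point per library, for the 12 measured genes within 100 kb of the alkaline phosphatase cluster, in chromosome order. The 7 genes from *Akp-ps1* to *Ecel1* lie higher with corticosterone (red) than with vehicle (blue), while *Dis3l2* and *Eif4e2* at the ends overlap.

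Of the relatives that fell, *Mme*, which encodes the endopeptidase neprilysin and belongs to the family of *Phex*, changed with the smallest adjusted p. It had 15734, 17883 and 17032 normalized counts with vehicle and 6978, 7848 and 6554 with corticosterone (-1.25 ± 0.06 SE, limma adjusted p = 2.4e-10), with no overlap. *Enpp2*, which encodes autotaxin, a lysophospholipase D of the *Enpp1* family, fell from 198 ± 28.9 to 57.3 ± 22.9 (SD, n = 3; -1.86, adjusted p = 1.2e-05). *Enpp3*, another pyrophosphate-forming ectoenzyme gene, had 368 ± 31.9 and 389 ± 28.8 (0.08, adjusted p = 0.64) and its libraries overlapped. Of the sphingomyelinases, *Smpdl3b* (-0.61) and *Smpd4* (-0.33) fell with *Smpd3*, *Smpd2* rose (0.39, adjusted p = 0.0070, or 0.063 to 0.079 without vehicle replicate 3, corticosterone replicate 2 or corticosterone replicate 3), and *Smpd1*, the lysosomal form, had overlapping groups (-0.04, adjusted p = 0.65). Exons of *Mical1*, on the opposite strand, cover 20.3% of the *Smpd2* exon bases, and *Mical1* had a mean of 451 over all libraries. The ratio of *Smpd3* to *Smpd1* within a library went from 0.290 ± 0.0526 to 0.181 ± 0.0214 without overlap.

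Of 18 genes of phosphate transport and sensing, 13 were measured, of which 2 rose, 2 fell and 9 did not pass, with a median of 0.15. *Fgf23*, which encodes the bone hormone that lowers blood phosphate, had 29.2, 31.6 and 32.1 normalized counts with vehicle and 8.57, 6.63 and 3.84 with corticosterone (-2.34 ± 0.43 SE, limma adjusted p = 9.0e-04). It was the only gene of this list that passed both the adjusted p threshold and a log2 fold change of 1. *Slc25a3*, the mitochondrial phosphate carrier (0.22, adjusted p = 3.1e-04), and *Slc37a3* (0.27, adjusted p = 5.4e-04) rose. *Fgfr1*, a receptor for this hormone, fell (-0.24, adjusted p = 0.0053), but not with an adjusted p under 0.05 when vehicle replicate 3 (0.12), corticosterone replicate 1 (0.053) or corticosterone replicate 3 (0.080) was left out.

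The list of ATP release and extracellular nucleotides holds 14 genes, among them receptors, a nucleoside carrier and pyrophosphatases inside the cell. Of these genes 13 were measured, of which 5 rose, 1 fell and 7 did not pass, with a median of 0.21. *Nt5e*, which encodes the ectoenzyme CD73 that turns AMP into adenosine and phosphate, had 204, 269 and 203 normalized counts with vehicle and 494, 530 and 468 with corticosterone. The mean went from 225 ± 37.6 to 497 ± 31.1 (SD, n = 3), with the groups well apart (limma adjusted p = 4.8e-07). *Entpd3*, for an ectonucleotidase that takes phosphate off ATP, rose from 716 ± 65.5 to 1081 ± 61.4 (0.60, adjusted p = 9.7e-06), and *Ppa1* (0.28) and *Ppa2* (0.33), for the pyrophosphatases of the cytosol and the mitochondrion, and *Slc29a1* (0.21), for a nucleoside carrier, rose too. The adjusted p of *Slc29a1* was 0.071 without vehicle replicate 3, 0.053 without corticosterone replicate 1 and 0.064 without corticosterone replicate 3. *Panx3*, for a channel that lets ATP out of osteoblasts, had 103, 172 and 125 with vehicle and 46.0, 46.4 and 65.2 with corticosterone (-1.33 ± 0.20 SE, adjusted p = 1.4e-04). *P2rx7*, for a receptor of extracellular ATP, had 629 and 546 on average (-0.20, adjusted p = 0.052) and fell with an adjusted p of 0.046 when vehicle replicate 1 was left out.

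All 15 genes of phosphatase activation, matrix vesicles and phosphocholine supply were measured, of which 1 rose, 4 fell and 10 did not pass, with a median of -0.04. Both sphingomyelin synthases fell: *Sgms2* from 405 ± 56.1 to 209 ± 34.1 (SD, n = 3; -0.96, limma adjusted p = 1.7e-05) and *Sgms1* from 914 ± 8.29 to 668 ± 31.4 (-0.45, adjusted p = 2.6e-05). These enzymes make the substrate that the *Smpd3* product cuts. Of the annexins, which bind calcium on matrix vesicles, *Anxa2* fell (-0.27, adjusted p = 5.4e-05), *Anxa6* fell slightly (-0.12, adjusted p = 0.040) and *Anxa5* rose slightly (0.13, adjusted p = 0.015). *Anxa6* did not stay under 0.05 when vehicle replicate 1, vehicle replicate 3 or any corticosterone library was left out, nor *Anxa5* without vehicle replicate 3 or corticosterone replicate 1, while *Chka* passed without vehicle replicate 2 (0.24, adjusted p = 0.024). The zinc transporters that load alkaline phosphatase, *Slc30a5* (0.02), *Slc30a6* (0.16) and *Slc30a7* (-0.04), had adjusted p-values of 0.86, 0.25 and 0.75.

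Of 10 secreted phosphoproteins and mineral binders, which include substrates of the *Fam20c* kinase, 8 were measured, of which 3 rose, 3 fell and 2 did not pass, with a median of -0.11. *Ibsp*, for bone sialoprotein, fell from 729 ± 116 to 320 ± 81.3 (SD, n = 3; -1.20, limma adjusted p = 9.0e-06), and *Bglap*, for osteocalcin, from 232 ± 33.8 to 63.5 ± 11.4 (-1.87, adjusted p = 2.0e-07). *Bglap* shares 62.9% of its 31-base stretches with other genes, mainly *Bglap2*, so its reads may be split. *Mgp*, for matrix Gla protein, an inhibitor of calcification, had 35915, 34072 and 34195 normalized counts with vehicle and 54417, 55649 and 59613 with corticosterone (0.70 ± 0.04 SE, adjusted p = 3.8e-09). *Spp1*, for osteopontin, an inhibitor of crystal growth when phosphorylated, rose from 102650 ± 4555 to 120669 ± 1382 (0.23, adjusted p = 6.1e-04), while *Dmp1* had 599 ± 14.9 and 622 ± 7.18 (0.05, adjusted p = 0.66). *Vkorc1*, of the vitamin K cycle on which Gla proteins depend, fell (-0.58). It shares 46.0% of its 31-base stretches with *Gm21974* on the same strand, so its reads may be split too. *Ggcx*, for the carboxylase itself, rose (0.18, adjusted p = 0.047) in the full set but passed with none of the 6 libraries left out. Of the 8 genes, 4 are also on the cell type marker lists.

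**Figure D5:**
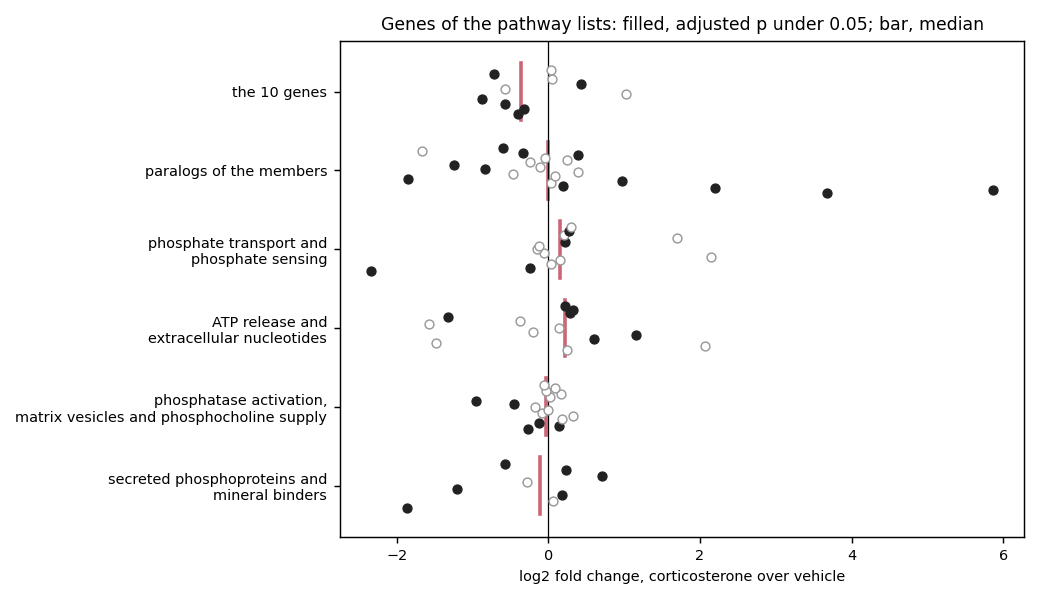
Log2 fold change of corticosterone over vehicle for every measured gene of the 10 and of the 5 further lists, 1 point per gene, filled where the limma adjusted p was under 0.05, with a red bar at each list's median. The 10 genes have a median of -0.36, the nucleotide genes of 0.21, and the points furthest to the right are the alkaline phosphatase relatives.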

How the data were processed

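RNA-seq of 3 vehicle and 3 corticosterone libraries was analysed. Per the labels the reads were placed on mm10, and the kit was the NEBNext Ultra RNA kit. The aligner, the counting program and its strand setting are not given in the sources used here. The authors deposited 1 signal per gene and library, named FPKM, whose steps show that it holds read counts divided by 1 size factor for each library. Whole reads came back for 100% of the values (within 0.01 read). The floor of 3 reads equals a normalized count of 2.32 to 3.84, which covers counting error only.

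The main test was limma 3.58.1 (lmFit, eBayes with a variance trend, R 4.3.3) on log2(value + 0.1) over all 24016 genes with no filter, with Benjamini-Hochberg adjustment. With this pseudocount the fitted change of genes with few or no reads in a library depends on the pseudocount and can be too large. The design had assumed FPKM values and was kept. A gene was called at an adjusted p under 0.05, and under the stricter call also at an absolute log2 fold change over 1. edgeR 4.0.16 and DESeq2 1.42.0 on the whole reads, other pseudocounts, filters and scalings, a replicate block and leaving out each library were alternatives. Counts of 23733 genes were simulated with a dispersion of 0.02, 200 of them with a true log2 fold change of 2. Of these 200, limma recovered 194, edgeR 195 and DESeq2 192, with 0, 2 and 0 false calls. Smaller changes, such as those of *Fam20c* or *Ank*, were not simulated. The simulation therefore does not show how well such changes are detected.

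The 10 genes and the 5 lists were chosen with earlier results of these data known. From each list the genes past both thresholds, and otherwise the 2 with the smallest adjusted p, were to be named. Further listed genes and the neighbours on chromosome 1 were named after their values were seen. Symbols, coordinates and exons were taken from GENCODE (GRCm38; 23983 identifiers matched), and promoters from RefSeq (GRCm38.p6). Motifs were searched in 250 bases before each start. Python 3.11.15 with pandas 2.3.3 was used for tables, and matplotlib 3.10.9 for plots. Protein sequences were not analysed here.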

Additional observations from a re-analysis of the deposited data

How the results depend on the processing

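Each of the 10 genes was refitted under up to 19 alternatives. *Fam20c*, *Enpp1* and *Slc20a1* kept their direction and an adjusted p under 0.05 in all of them, and *Alpl*, *Smpd3* and *Ank* kept their direction. Scaling to the same total reversed *Xpr1* (-0.0074, limma adjusted p = 0.97), which was not called either way. Without the variance trend the count of the 10 genes that were lower dropped from 5 to 2, and with 1 library left out it was 4 to 5. The number of replicates per group and, for *Phospho1* and *Phex*, the number of reads limit what could be detected.

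Replicate numbers are shared by both groups in the labels, with no statement on pairing. Same-numbered libraries deviated from their group means with correlations of -0.044, 0.0014 and 0.023 over 13880 genes, so the numbers were not taken as pairs, and the best match of a library was not always its own number. With the replicate block in limma, *Alpl* had an adjusted p of 0.0022 and *Fam20c* a log2 fold change of -0.88, and the block changed no call among the 10 genes. With DESeq2 and the block, 1254 of all genes were lower, 198 of them past a log2 fold change of 1, against 1970 and 337 in limma.

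Over all genes, 873 were higher and 760 lower without the variance trend, against 2040 and 1970 with it. With 1 library left out the counts ranged from 1419 to 1873 higher and 1148 to 1611 lower, the fewest without vehicle replicate 3, and past a log2 fold change of 1 from 253 to 331 higher and 204 to 321 lower (204 without vehicle replicate 3 and 220 without vehicle replicate 2). No scaling moved the median of all genes by over 0.1.

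In the lists, omitting the trend gave 2 higher and 3 lower relatives, 0 higher and 1 lower phosphate genes, 3 higher and 0 lower nucleotide genes, 0 higher and 2 lower phosphatase and vesicle genes, and 1 higher secreted protein gene. Nucleotide genes had 2 lower with a pseudocount of 1, a mean of at least 1 or 10, TMM scaling, scaling to the same total, and edgeR with or without the block. Scaling to the same total left 0 phosphatase and vesicle genes higher. Leaving out 1 library gave 3 to 5 higher and 5 to 6 lower relatives, 2 higher and 1 to 2 lower phosphate genes, 4 to 5 higher and 1 to 2 lower nucleotide genes, 0 to 2 higher and 3 to 4 lower phosphatase and vesicle genes, and 2 higher and 3 lower secreted protein genes. Apart from these constructions, the cause of each difference was not tested.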

Other observations

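Markers of other cell types were read beside the 10 genes. *Fabp4*, a fatty acid binding protein of adipocytes, had 21.1, 7.72 and 15.5 normalized counts with vehicle and 124, 108 and 130 with corticosterone (3.14, limma adjusted p = 1.3e-06). The summed adipocyte list went from 7.72 to 21.1 with vehicle to 108 to 133 with corticosterone, and this sum rests on *Fabp4*. *Plin1* had 0 reads in 5 of the 6 libraries, and *Adipoq*, *Lep* and *Cfd* were looked for but are not listed among the genes measured.

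Of the chondrocyte list, *Col10a1*, the collagen of hypertrophic cartilage, rose from 58.0 ± 7.47 to 96.0 ± 13.3 (SD, n = 3; 0.73, limma adjusted p = 0.0073), whereas *Col2a1* fell from 1297 ± 158 to 744 ± 81.0 (-0.80, adjusted p = 3.5e-06) and *Sox9* fell slightly (-0.16, adjusted p = 0.036). The summed osteocyte list overlapped between groups, at 619 to 651 with vehicle and 623 to 638 with corticosterone, since *Dmp1* made up most of it. The endothelial and muscle lists summed to at most 12.8 and 23.9 normalized counts in any library, and the leukocyte list went from 232 to 268 with vehicle to 183 to 211 with corticosterone, carried by *Lyz2*.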
